A study of Mus musculus with 12 samples.

Results

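The interaction of genotype and recombinant interferon-β (rIFN-β) was the rIFN-β effect in Ifnb-/- cerebellar granule neuron (CGN) cultures minus the rIFN-β effect in Ifnb+/+ CGN cultures, each effect being the treated mean minus the untreated mean on the log2 scale. It was taken for every gene named alone by at least 1 probe set, from that gene's brightest such probe set, which gave 18193 genes of the 19324 that any probe set named. A positive value means that the effect in Ifnb-/- lay above the effect in Ifnb+/+, whether a gene rose more, fell less or moved the other way. The 12 cultures were all from B10.RIII pups 7 days old, were grown for 3 days and fell into 4 groups of 3: Ifnb-/- with rIFN-β (100 U/ml, 24 hr), untreated Ifnb-/-, Ifnb+/+ with rIFN-β (100 U/ml, 24 hr) and untreated Ifnb+/+. The deletion was constitutive, in all cells of the mice and not in neurons alone. The methods count Ifnb+/- as well as Ifnb+/+ littermates as wild type for the mice of the study, whereas the labels of these cultures give Ifnb+/+. It is not stated whether the 3 cultures of a group came from separate litters, so p-values measure the spread between these cultures only.

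Granule neurons are small glutamatergic cells and the most numerous neurons of the cerebellum, and cultures made from them can also hold microglia, astrocytes and other cell types. IFN-β binds the receptor made of Ifnar1 and Ifnar2, which activates the kinases Jak1 and Tyk2, and the signal they pass to the nucleus switches on interferon-stimulated genes. Low constitutive IFN-β keeps some of this machinery present before any stimulus, and in macrophages and microglia it also sets the level of genes for phagocytosis and antigen presentation.

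The array medians of all probe sets lay between 4.33 and 4.42 on the log2 scale. Ifnb1 itself gave a dim signal in all groups, at 2.98, 3.06 and 2.80 with rIFN-β and 2.87, 2.75 and 2.48 untreated in Ifnb-/-, against 2.71, 2.71 and 2.56 with rIFN-β and 2.60, 2.77 and 2.79 untreated in Ifnb+/+, which does not check the genotype labels. Of 5 defining granule neuron markers, Neurod1, Pax6, Zic1 and Rbfox3 had means above those of 95.7% of genes or more and Gabra6 above those of 56%. The brightest markers of other cells reached this range, with the astrocyte gene Aqp4 above 96.3% and the oligodendrocyte gene Mbp above 98.1%. The other defining astrocyte markers Gfap, Slc1a3 and Aldh1l1 lay above 90.6%, 89.1% and 87.5%, and the meningeal gene Dcn above 86.6%. The oligodendrocyte genes Olig1, Sox10 and Olig2 were dimmer, above 71.3%, 56.2% and 39.6%. The microglial gene Csf1r lay above 83%, and the vascular genes Pecam1 and Cldn5 above 18.8% and 29%. The spread between arrays was unequal: the median SD of a gene was 0.154 among treated and 0.0872 among untreated Ifnb-/- arrays, 0.171 among treated and 0.201 among untreated Ifnb+/+ arrays. Some arrays stood apart. Untreated Ifnb+/+ replicate 1 correlated across genes at 0.971 to 0.988 with its own group. Its highest correlation with an array of another group was 0.979. Untreated Ifnb+/+ replicates 2 and 3 correlated at 0.993 with each other, and the 0.971 given next is that of replicates 1 and 2. Untreated Ifnb+/+ replicate 2 correlated across genes at 0.995 with an untreated Ifnb-/- array but at 0.971 to 0.993 with its own group, and Ifnb-/- with rIFN-β replicate 2 correlated at 0.991 with Ifnb+/+ with rIFN-β replicate 3 but at 0.985 to 0.987 with its own group. Ifnb+/+ with rIFN-β replicate 1 correlated at 0.994 with a treated Ifnb-/- array but at 0.983 to 0.989 with its own group. The other treated Ifnb+/+ arrays likewise correlated best with a treated Ifnb-/- array, so this was not particular to replicate 1. For replicate 2 it was 0.99 against 0.989 with its own group, and for replicate 3 it was 0.991 against 0.983 to 0.989. The called genes are given below with each array left out in turn, and the counts of some gene lists are given without some of these arrays.

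Of the 18193 genes, 4 (0.022%) passed the test of the interaction in limma at an adjusted p under 0.05: Adam8, Trem2, Ctsd and Slc37a2. All 4 had a positive interaction, and 0 genes passed with a negative one. With ordinary least squares, without the variances moderated across genes, 0 of the 4 passed. All 4 fell with rIFN-β in Ifnb+/+ and did not pass the test of rIFN-β in Ifnb-/-, and all are expressed by phagocytes. The promoters of these genes are shown because they moved together. Each window runs from 250 bases before to 50 bases after the RefSeq transcription start in GRCm38.p6, read 5′ to 3′ on the gene's strand, and capitals mark the motif CACGTG.
Adam8: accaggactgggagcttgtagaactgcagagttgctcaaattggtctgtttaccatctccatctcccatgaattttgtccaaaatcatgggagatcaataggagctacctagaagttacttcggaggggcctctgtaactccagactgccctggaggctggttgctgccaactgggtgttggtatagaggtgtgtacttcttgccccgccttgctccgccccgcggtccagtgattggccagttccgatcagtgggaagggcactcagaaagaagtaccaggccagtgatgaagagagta
Trem2: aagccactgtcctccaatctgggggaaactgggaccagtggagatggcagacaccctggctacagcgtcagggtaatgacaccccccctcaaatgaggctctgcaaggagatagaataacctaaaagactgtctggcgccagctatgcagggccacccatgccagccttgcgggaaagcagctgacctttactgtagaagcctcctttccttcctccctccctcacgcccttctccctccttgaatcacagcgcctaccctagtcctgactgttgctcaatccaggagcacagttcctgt
Ctsd: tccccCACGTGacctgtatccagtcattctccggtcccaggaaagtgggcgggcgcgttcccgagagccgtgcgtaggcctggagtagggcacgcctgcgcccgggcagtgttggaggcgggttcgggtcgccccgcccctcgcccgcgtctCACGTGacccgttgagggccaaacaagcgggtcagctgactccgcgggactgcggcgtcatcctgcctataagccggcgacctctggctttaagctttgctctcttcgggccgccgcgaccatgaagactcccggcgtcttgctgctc
Slc37a2: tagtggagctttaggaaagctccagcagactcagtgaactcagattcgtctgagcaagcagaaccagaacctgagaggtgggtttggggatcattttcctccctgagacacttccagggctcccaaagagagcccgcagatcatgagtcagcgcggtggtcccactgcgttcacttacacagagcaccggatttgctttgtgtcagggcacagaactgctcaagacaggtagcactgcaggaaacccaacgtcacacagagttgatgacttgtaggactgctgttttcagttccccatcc

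The windows lie at chr7:139992513-139992812 (minus strand) for Adam8, chr17:48346151-48346450 (plus strand) for Trem2, chr7:142387778-142388077 (minus strand) for Ctsd and chr9:37255689-37255988 (minus strand) for Slc37a2. They were searched on both strands for the core of the interferon-stimulated response element (GAAA and GAAA parted by any 2 bases), the interferon-γ activated site (TTCNNNGAA), the E-box CACGTG bound by regulators of lysosomal genes, and a core bound by the myeloid factor PU.1 (GAGGAAGT). Of all 32851 RefSeq windows of this length, 3.44% held the first, 8.3% the second, 7.15% the third and 3.2% the last. The Ctsd window held CACGTG 245 and 98 bases before the start. The other 3 windows held none of the 4 patterns, which says only that these letters are not in these windows.

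Adam8, a membrane metalloproteinase of leukocytes, read 5.88, 5.88 and 6.07 with rIFN-β and 6.27, 6.20 and 6.22 untreated in Ifnb-/-, against 5.56, 5.14 and 5.12 with rIFN-β and 7.09, 7.44 and 7.38 untreated in Ifnb+/+. The untreated Ifnb+/+ arrays were the highest and the Ifnb+/+ arrays with rIFN-β the lowest, and no array of any group overlapped another group. rIFN-β lowered Adam8 4.09-fold in Ifnb+/+ (log2 -2.03, adjusted p = 5.6e-06), and the log2 difference in Ifnb-/- was -0.29 (adjusted p = 0.368). The interaction was 1.74 ± 0.20 (SE, 95% interval 1.32 to 2.17, adjusted p = 0.012, limma). Trem2, a lipid-sensing receptor of microglia that signals through Tyrobp, read 5.70, 5.93 and 6.01 with rIFN-β and 5.74, 5.54 and 5.67 untreated in Ifnb-/-, against 5.19, 4.95 and 5.39 with rIFN-β and 6.79, 6.75 and 6.49 untreated in Ifnb+/+. The treated and untreated Ifnb-/- arrays overlapped, while both lay between the treated and untreated Ifnb+/+ arrays. rIFN-β lowered Trem2 2.83-fold in Ifnb+/+ (log2 -1.50, adjusted p = 8.01e-05), against a log2 difference of 0.23 in Ifnb-/- (adjusted p = 0.464), an interaction of 1.73 ± 0.20 (SE, 95% interval 1.30 to 2.16, adjusted p = 0.012, limma). A second, dimmer probe set of Trem2 with a mean of 3.47 gave an interaction of 0.001, and with the probe sets of each gene averaged the interaction of Trem2 was 0.87 and did not pass.

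Ctsd, the lysosomal aspartic protease cathepsin D, was the brightest of the 4 and read 9.76, 9.92 and 9.90 with rIFN-β and 9.94, 9.92 and 9.93 untreated in Ifnb-/-, against 9.63, 9.40 and 9.44 with rIFN-β and 10.72, 10.57 and 10.58 untreated in Ifnb+/+. The treated Ifnb-/- arrays reached into the narrow range of the untreated Ifnb-/- arrays, and both groups lay between the treated and the untreated Ifnb+/+ arrays. Its interaction was 1.07 ± 0.15 (SE, 95% interval 0.75 to 1.38, adjusted p = 0.0414, limma), from a log2 effect of -0.06 in Ifnb-/- (adjusted p = 0.79) and of -1.13 in Ifnb+/+ (adjusted p = 7.01e-05). Slc37a2, a sugar phosphate transporter of macrophages, read 4.40, 4.65 and 4.46 with rIFN-β and 4.40, 4.42 and 4.41 untreated in Ifnb-/-, against 4.05, 4.35 and 4.39 with rIFN-β and 5.46, 5.50 and 5.29 untreated in Ifnb+/+. The untreated Ifnb+/+ arrays stood clear above the rest, and the treated Ifnb+/+ arrays lay below all others, by a very small margin at the nearest. The interaction was 1.24 ± 0.17 (SE, 95% interval 0.87 to 1.61, adjusted p = 0.0414, limma), with effects of 0.09 in Ifnb-/- (adjusted p = 0.742) and -1.15 in Ifnb+/+ (adjusted p = 0.000216).

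**Figure D1:**
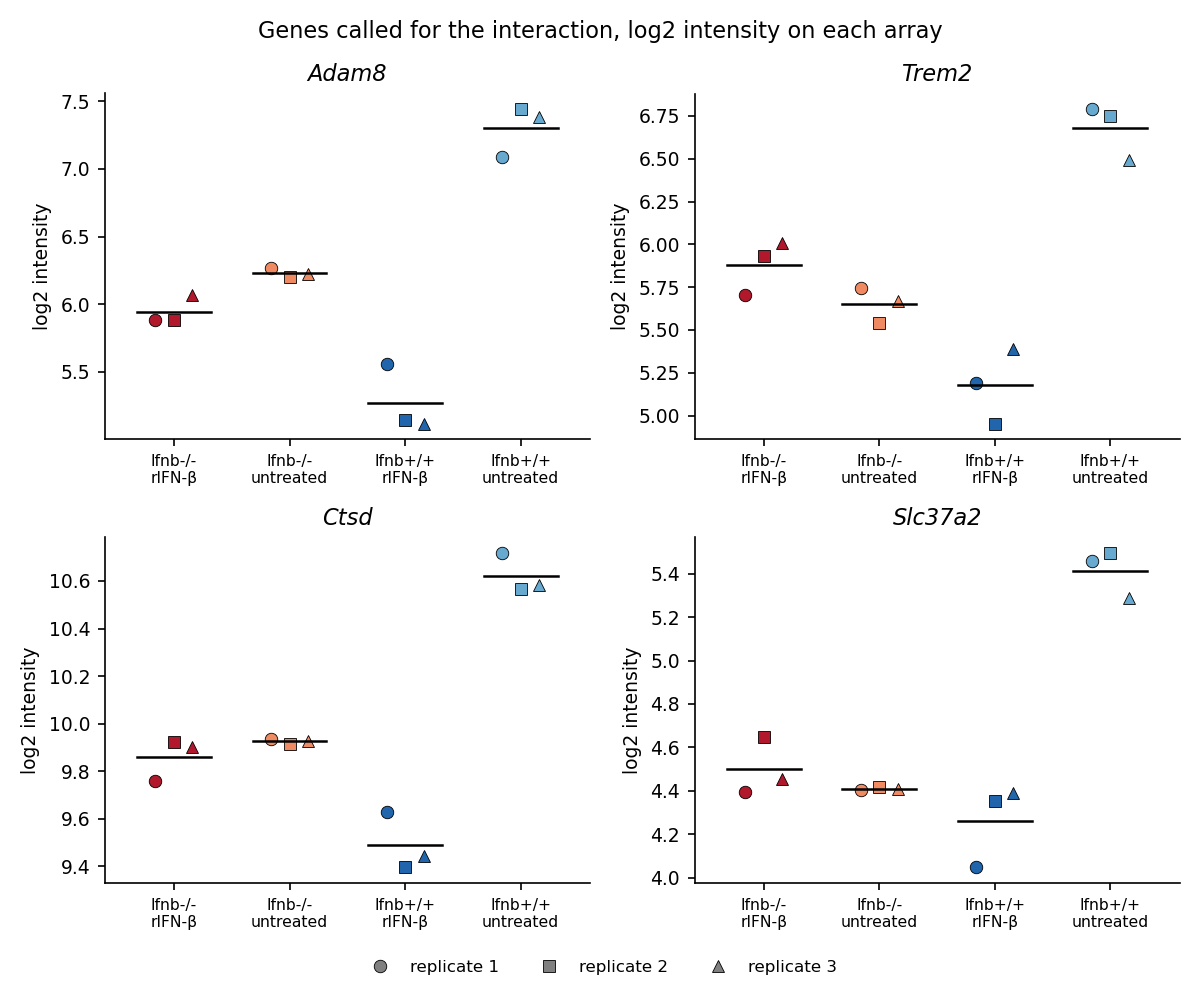
Log2 intensity (y axis) of the 4 genes called for the interaction on each of the 12 arrays, by group (x axis), with replicates 1, 2 and 3 as circles, squares and triangles and the group mean as a bar. In each panel the 3 untreated Ifnb+/+ arrays are the highest of the 12, and the axes do not start at 0.

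The estimates of the 4 genes stayed positive with each array left out in turn, from 1.67 to 1.89 for Adam8, 1.62 to 1.84 for Trem2, 1.02 to 1.14 for Ctsd and 1.13 to 1.31 for Slc37a2. The count of called genes did not hold in the same way: it was 1237 without untreated Ifnb+/+ replicate 2 (803 positive, 434 negative), 61 without Ifnb+/+ with rIFN-β replicate 1 (9 positive, 52 negative) and 0 to 2 without any other array, the 4 genes being among those called in both of these larger sets. Ctsd and Slc37a2 missed the threshold without any one of the other 10 arrays, with adjusted p of up to 0.217 in limma, and Adam8 and Trem2 reached at most 0.0787.

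Across all genes the median standard error of the interaction was 0.213, and the median 95% interval reached 0.464 to either side of the estimate. For 13332 genes (73.3%) the whole interval lay within 1 log2 unit of 0, that is, within a 2-fold difference between the rIFN-β effects, and for 5778 genes it lay within a 1.5-fold difference. At an unadjusted p under 0.05 the interaction took in 2783 genes (15.3%), of which 1836 (10.1%) were positive and 947 (5.21%) negative. This split turned with the scaling. The median interaction over all genes was 0.11, and subtracting the array medians brought it to 0.04, after which 961 genes were positive and 1469 negative at that p. The counts also moved with single arrays. They were 984 positive and 565 negative without untreated Ifnb+/+ replicate 1, and 3632 and 2195 without its replicate 2.

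The genes with the smallest p had a common form. Of the 33 positive genes with an unadjusted p under 0.001, all 33 had a lower estimate in untreated Ifnb-/- than in untreated Ifnb+/+ and a higher estimate in treated Ifnb-/- than in treated Ifnb+/+. Of these, 21 had a positive effect in Ifnb-/- and a negative one in Ifnb+/+, 12 had negative effects in both, and 0 had positive effects in both. Of the 11 negative genes at the same threshold, 8 had a negative effect in Ifnb-/- and a positive one in Ifnb+/+, and 3 had positive effects in both. Since the interaction is the difference of the treated genotypes minus the difference of the untreated genotypes, part of this form follows from the choice by p. In the plot of both effects, the called genes lie left of the centre with effects in Ifnb-/- near 0, whereas the interferon-stimulated genes lie far to the upper right and mostly under the line of equal effects.

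**Figure D2:**
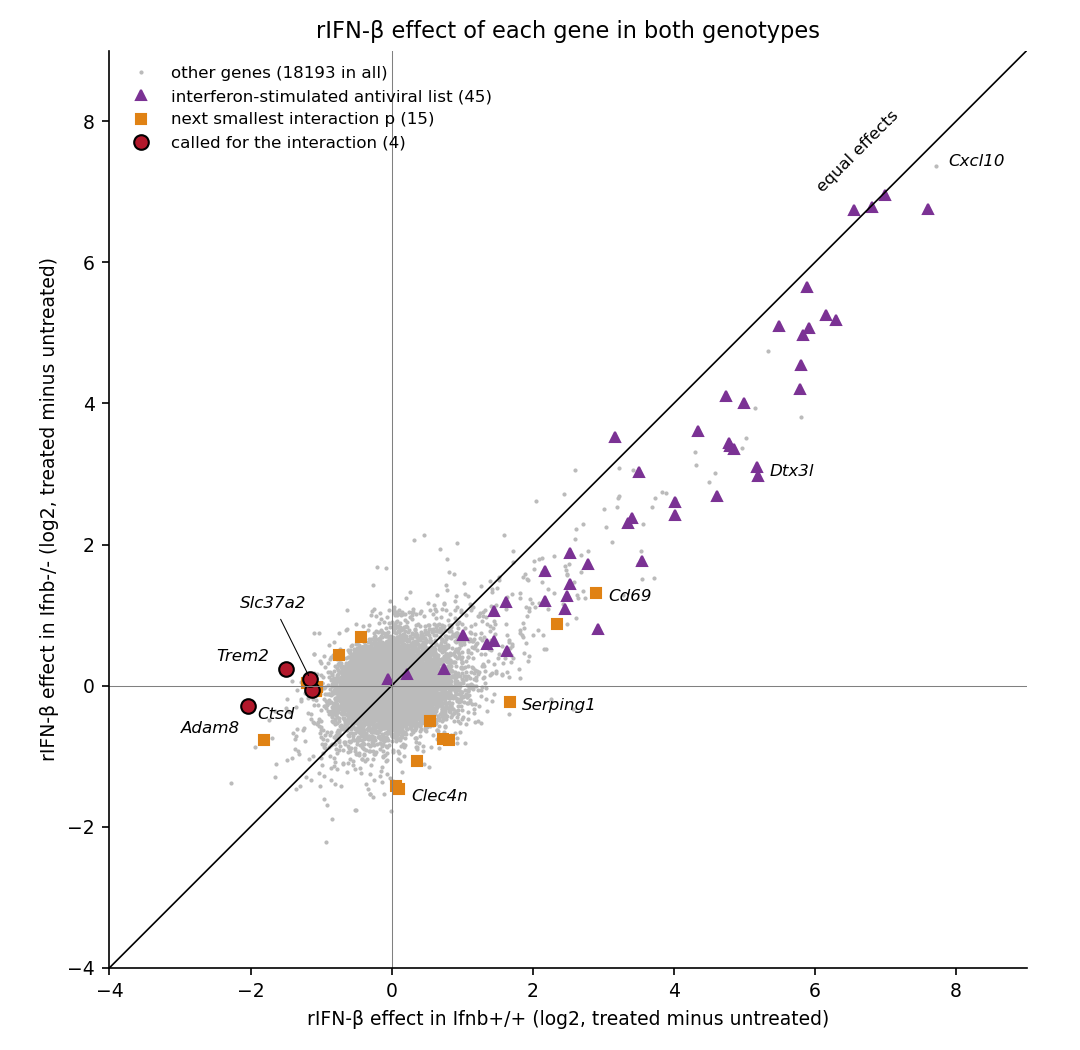
The rIFN-β effect in Ifnb-/- (y axis) against the rIFN-β effect in Ifnb+/+ (x axis), both as log2 treated minus untreated, for 18193 genes, with the line of equal effects. Circles are the 4 called genes, squares the other genes with the smallest interaction p outside the antiviral list, and triangles the 45 measured genes of that list, of which 3 lie above the line.

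Just outside the threshold were Hk3 and Clec4n, the other 2 genes at an adjusted p under 0.10. Hk3, the hexokinase of myeloid cells, had an interaction of 1.18 ± 0.17 (SE, adjusted p = 0.0709, limma) and read 6.05, 6.03 and 6.15 with rIFN-β and 5.74, 5.58 and 5.63 untreated in Ifnb-/-, against 5.75, 5.76 and 5.43 with rIFN-β and 6.52, 6.45 and 6.21 untreated in Ifnb+/+. Clec4n, which encodes the fungal pattern receptor Dectin-2, had the smallest p among negative genes, at -1.56 ± 0.24 (SE, adjusted p = 0.0937, limma), and its second probe set gave -2.31. Its arrays read 5.07, 5.56 and 5.41 with rIFN-β and 6.94, 6.68 and 6.81 untreated in Ifnb-/-, against 6.57, 6.33 and 6.55 with rIFN-β and 6.07, 6.71 and 6.37 untreated in Ifnb+/+, so that the treated Ifnb-/- arrays lay below all others. Clec4n fell with rIFN-β in Ifnb-/- by 1.46 on the log2 scale (adjusted p = 0.00104), where the log2 difference in Ifnb+/+ was 0.10 (adjusted p = 0.792). Also among the 10 negative genes with the smallest p, none of which passed the test, were Clec4e, which encodes Mincle, at -1.49 ± 0.33 (SE), the lipoprotein receptor gene Tlr2 at -1.58 ± 0.36 and the acute phase gene Saa3 at -1.43 ± 0.31 (adjusted p = 0.323 for each). A second, dimmer probe set of Clec4e gave 0.16.

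Among the next positive genes by p, none passed the test. The lipid droplet gene Plin2 had an interaction of 1.00 ± 0.18 (SE), the axon guidance gene Rgma 1.25 ± 0.22, the apoptosis gene Bmf 1.03 ± 0.19, and the complement inhibitor gene C4bp 1.13 ± 0.20 (adjusted p = 0.211 for each, limma). Plin2 lies on chromosome 4, as does the deleted Ifnb1, and the part of DNA linked to the deletion was not tested. Bmf differed in form from the called genes, since it fell with rIFN-β in both genotypes, by 0.77 in Ifnb-/- (adjusted p = 0.0136) and by 1.80 in Ifnb+/+ (adjusted p = 1.01e-05). The other, dimmer probe sets of Bmf gave interactions of -0.33 and 0.58. Loxl1, an enzyme of elastic fibers, had a larger but less precise estimate of 1.90 ± 0.42 (SE, adjusted p = 0.323), and its untreated Ifnb+/+ arrays spread from 4.48 to 6.12.

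**Figure D3:**
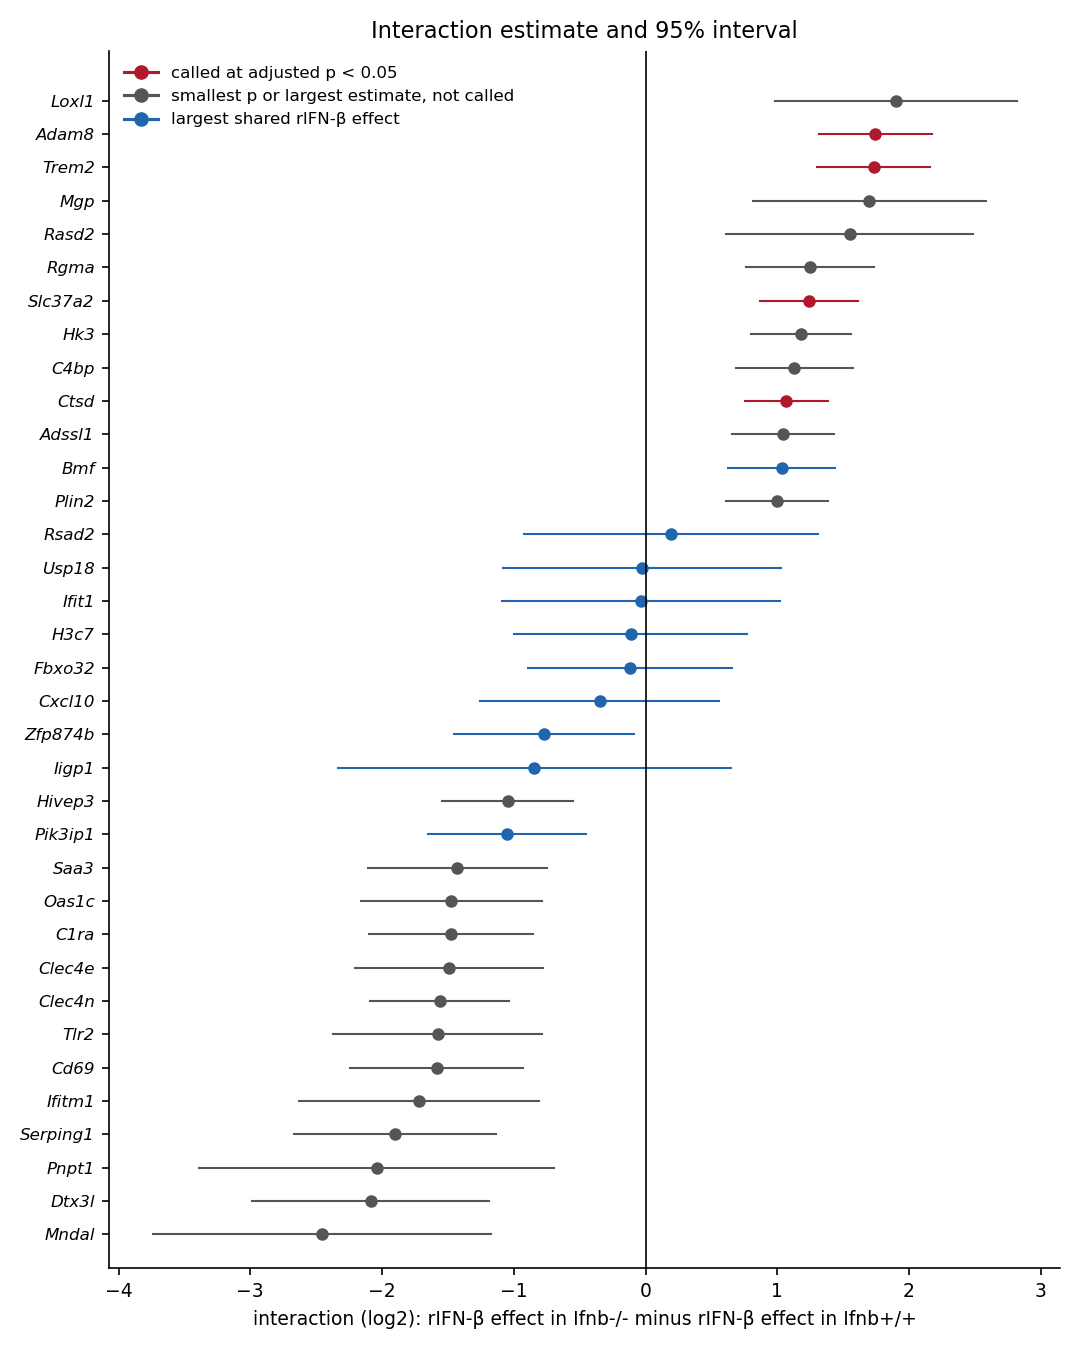
Interaction (x axis, log2, rIFN-β effect in Ifnb-/- minus rIFN-β effect in Ifnb+/+) with its 95% interval for genes chosen by smallest p, largest estimate or largest shared rIFN-β effect (y axis). The called genes have narrow intervals, such as 0.75 to 1.38 for Ctsd, while those of strongly induced genes are wide and cross 0, such as -1.09 to 1.02 for Ifit1.

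The response to interferon itself was tested next. Both genotypes responded: 304 genes (1.67%) passed the test of rIFN-β in Ifnb-/-, of which 169 (0.929%) rose, and 571 (3.14%) in Ifnb+/+, of which 324 (1.78%) rose. The order of these counts was not stable, with 1397 genes in Ifnb-/- and 286 in Ifnb+/+ when each group had a weight of its own, and 705 and 425 without untreated Ifnb+/+ replicate 1. Of the 45 measured interferon-stimulated antiviral genes, 31 rose in Ifnb-/- and 40 in Ifnb+/+, with a median log2 effect of 2.69 in Ifnb-/- and 4.01 in Ifnb+/+. None of the 45 was called for the interaction, 3 had a positive estimate, and the median was -0.89, against 0.11 over all genes. At an unadjusted p under 0.05, 13 of the 45 were negative and 0 positive, where 5.21% of all genes were negative and 10.1% positive. The standard errors were large, with a median of 0.512 in the list against 0.213 over all genes.

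The treated arrays of both genotypes overlapped for these genes. The median deviation of the list from its 12-array means was 0.54, 1.40 and 0.58 on treated and -1.88, -1.76 and -1.76 on untreated Ifnb-/- arrays, against 1.32, 2.66 and 3.30 on treated and -1.37, -1.53 and -1.49 on untreated Ifnb+/+ arrays. Thus Ifnb-/- with rIFN-β replicate 2 lay above Ifnb+/+ with rIFN-β replicate 1. Without that Ifnb+/+ array 36 of the 45 genes were negative at an unadjusted p under 0.05 and 6 were called. Over all 18193 genes 1571 were negative at that p and 52 were called negative. Without Ifnb-/- with rIFN-β replicate 3, 7 of the 45 and 469 of all genes were negative at that p. The list's median stayed negative with each array left out, from -1.37 to -0.52. These same treated arrays differed in astrocyte markers, whose list median was -0.26, 0.83 and -0.16 on treated Ifnb-/- arrays and -0.31, 0.15 and 0.47 on treated Ifnb+/+ arrays. The part of this in the values of the antiviral genes was not tested.

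Dtx3l, a ubiquitin ligase that works with Parp9, had the smallest p of the list, with an interaction of -2.08 ± 0.41 (SE, 95% interval -2.98 to -1.18, adjusted p = 0.32, limma). It read 7.47, 8.14 and 7.48 with rIFN-β and 4.80, 4.37 and 4.64 untreated in Ifnb-/-, against 9.12, 10.17 and 10.47 with rIFN-β and 4.73, 4.84 and 4.65 untreated in Ifnb+/+. The treated Ifnb-/- arrays lay below all treated Ifnb+/+ arrays, and Dtx3l rose 8.55-fold in Ifnb-/- and 36.2-fold in Ifnb+/+. Next came Ddx58, the RNA sensor RIG-I, at -1.61 ± 0.52 (SE), and Eif2ak2, the double-stranded RNA kinase PKR, at -2.13 ± 0.72 (adjusted p = 0.323 for both). Outside the list, the interferon-inducible gene Mndal had an interaction of -2.46 ± 0.59 (SE, adjusted p = 0.323), and read 9.36, 9.42 and 9.12 with rIFN-β and 9.50, 9.53 and 9.48 untreated in Ifnb-/-, against 9.32, 10.68 and 11.03 with rIFN-β and 7.22, 8.85 and 8.18 untreated in Ifnb+/+. All Ifnb-/- arrays of Mndal lay between 9.12 and 9.53, while the Ifnb+/+ arrays ran from 7.22 to 11.03 and Ifnb+/+ with rIFN-β replicate 1 lay within the Ifnb-/- range. Cd69, an early activation antigen of leukocytes, rose in both genotypes, by 1.31 in Ifnb-/- (adjusted p = 0.00987) and 2.90 in Ifnb+/+ (adjusted p = 1.02e-05), with an interaction of -1.58 ± 0.30 (SE, adjusted p = 0.259).

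Oas1c, one of the antiviral 2′-5′ oligoadenylate synthetase family, had an interaction of -1.47 ± 0.31 (SE, adjusted p = 0.323) and read 3.57, 3.45 and 3.82 with rIFN-β and 2.70, 2.69 and 2.82 untreated in Ifnb-/-, against 4.44, 5.25 and 5.50 with rIFN-β and 2.52, 2.86 and 2.78 untreated in Ifnb+/+. Its window at chr5:120812465-120812764 (minus strand) is shown as an example chosen because it holds overlapping matches to the first of these patterns, in capitals, that start 114 and 108 bases before the start. Of the other windows read for negative genes, those of Mndal and Saa3 also held that pattern. Those of Dtx3l, Pnpt1, Ifitm1, C1ra, Hivep3, Clec4e and Tlr2 did not.
Oas1c: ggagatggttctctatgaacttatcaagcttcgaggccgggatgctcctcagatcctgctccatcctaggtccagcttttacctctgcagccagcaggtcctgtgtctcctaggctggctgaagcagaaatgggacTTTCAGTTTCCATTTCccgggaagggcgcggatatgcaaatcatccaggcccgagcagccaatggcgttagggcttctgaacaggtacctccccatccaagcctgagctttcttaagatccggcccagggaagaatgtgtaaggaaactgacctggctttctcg

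The genes most strongly induced in both genotypes had wide intervals that crossed 0. The largest of these estimates was -0.84 (95% interval -2.34 to 0.65) for Iigp1, a GTPase that acts on parasite vacuoles. Cxcl10, the chemokine that draws T cells, rose 166-fold in Ifnb-/- and 211-fold in Ifnb+/+, and its arrays read 10.90, 11.80 and 10.89 with rIFN-β and 3.96, 3.81 and 3.71 untreated in Ifnb-/-, against 11.48, 12.01 and 12.70 with rIFN-β and 4.11, 4.59 and 4.33 untreated in Ifnb+/+. Its interaction was -0.35 (95% interval -1.25 to 0.56). The interval allows an effect in Ifnb-/- that is lower by 1.25 log2 units or higher by 0.56. For Ifit1, an RNA-binding inhibitor of translation, the interaction was -0.03 (95% interval -1.09 to 1.02), for Usp18, the protease that removes Isg15 and damps the receptor, -0.03 (95% interval -1.08 to 1.03) and for Rsad2, the antiviral enzyme viperin, 0.19 (95% interval -0.92 to 1.31). Usp18 read 9.57, 9.54 and 9.48 with rIFN-β and 2.69, 2.62 and 2.94 untreated in Ifnb-/-, against 10.67, 11.22 and 11.79 with rIFN-β and 5.09, 3.52 and 4.63 untreated in Ifnb+/+, so the untreated and the treated Ifnb-/- arrays both lay below their Ifnb+/+ counterparts by similar amounts. The signs of Ifit1, Usp18 and Rsad2 changed with single arrays left out. Of the genes that fell in both genotypes, Pik3ip1, an inhibitor of PI3 kinase, read 6.01, 5.34 and 5.79 with rIFN-β and 7.59, 7.53 and 7.69 untreated in Ifnb-/-, against 6.19, 6.42 and 6.75 with rIFN-β and 7.08, 7.59 and 7.21 untreated in Ifnb+/+, with an interaction of -1.05 ± 0.27 (SE, adjusted p = 0.323).

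At the receptor, Ifnar1 and Ifnar2 had interactions of -0.16 (95% interval -0.50 to 0.17) and -0.13 (95% interval -0.44 to 0.18). Of 19 measured genes of the receptor and JAK-STAT list, 0 were called. At an unadjusted p under 0.05, 1 was positive and 4 were negative, where all genes had 10.1% positive and 5.21% negative. The 4 were the transcription factor genes Irf2 (-1.50 ± 0.52, SE) and Stat2 (-1.09 ± 0.46), the feedback inhibitor gene Socs1 (-0.83 ± 0.30) and the kinase gene Jak2 (-0.89 ± 0.36). Socs1 rose in both genotypes, by 1.85 in Ifnb-/- (adjusted p = 0.000932) and by 2.69 in Ifnb+/+ (adjusted p = 2.13e-05). Among 15 genes of MHC class I presentation, 0 were called, all 15 had a negative estimate and the median was -0.58, with 3 past an unadjusted p of 0.05: B2m, the light chain of MHC class I, and the peptide loading genes Tapbp and Tapbpl. B2m read 9.74, 10.20 and 9.72 with rIFN-β and 9.96, 9.88 and 10.05 untreated in Ifnb-/-, against 10.64, 11.11 and 11.83 with rIFN-β and 9.91, 10.71 and 10.26 untreated in Ifnb+/+, and its interaction was -0.98 ± 0.38 (SE, adjusted p = 0.323). The median of this list ran from -0.99 without Ifnb+/+ with rIFN-β replicate 1 to -0.23, and the 3 genes became 10 without that array. Over all 18193 genes 1571 were negative at that p without it. Of 18 chemokine genes, 0 were called and 3 (16.7%) had an unadjusted p under 0.05, near the 15.3% of all genes. The 3 were negative, led by Ccl2, which draws monocytes, at -1.26 ± 0.37 (SE, adjusted p = 0.323).

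The 4 called genes all belong to the list of lipid-associated and activated microglial genes, which was drawn up with earlier results of these data known. Of its 25 measured members, 10 were positive and 0 negative at an unadjusted p under 0.05, against 10.1% and 5.21% of all genes. A positive estimate was found for 21, where 63.5% of all genes had one, and the median was 0.38. Lgals3, which encodes galectin-3, followed at 1.30 ± 0.26 (SE), Gpnmb, a glycoprotein of lipid-laden phagocytes, at 1.28 ± 0.26 and the integrin gene Itgax at 1.78 ± 0.41 (adjusted p = 0.323 for each, limma). Tyrobp, the adaptor of Trem2, had an estimate of 0.32 ± 0.27, Apoe, the lipid carrier, 0.29 ± 0.29, and the lipase gene Lpl 0.11 ± 0.69, none of which passed. Within the list Lyz2, Abca1, Csf1 and Cd52 had negative estimates, from -0.89 for Abca1 to -0.40 for Csf1. On all 3 untreated Ifnb+/+ arrays the list's median lay above that of all other arrays, at 0.17, 0.81 and 0.49 from its 12-array mean, where the other 9 arrays lay between -0.32 and 0.00.

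Homeostatic microglial markers gave a mixed picture. Of 24, 7 were positive and 0 negative at an unadjusted p under 0.05, against 10.1% and 5.21% of all genes, and the median was 0.18. The 7 were Trem2, the phagosome gene Cd68, the complement genes C1qa, C1qb and C1qc, the fractalkine receptor gene Cx3cr1 and the adhesion ligand gene Selplg. Cd68 read 7.99, 7.52 and 8.20 with rIFN-β and 8.25, 8.24 and 8.30 untreated in Ifnb-/-, against 7.76, 7.12 and 7.25 with rIFN-β and 8.96, 9.16 and 8.97 untreated in Ifnb+/+, an interaction of 1.30 ± 0.26 (SE, adjusted p = 0.323). Csf1r, the survival receptor of microglia, had an interaction of 0.12 ± 0.19 (SE, 95% interval -0.30 to 0.54), the microglial gene Fcrls 0.02 ± 0.42 and the actin-binding marker Aif1 -0.62 ± 0.39. The defining markers P2ry12, Tmem119 and Itgam had group means of 2.61 to 4.28, in the lower part of the scale, where Csf1r had means of 7.35 in treated and 7.92 in untreated Ifnb-/-, against 7.71 in treated and 8.39 in untreated Ifnb+/+. The mean level over the 24 markers was 5.39 to 5.52 on treated and 5.59 to 5.64 on untreated Ifnb-/- arrays, against 5.39 to 5.67 on treated and 5.94 to 6.03 on untreated Ifnb+/+ arrays. In these bulk cultures fewer microglia and less RNA of these genes per microglial cell cannot be told apart, and the part of either in the interaction was not tested.

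Complement genes had estimates of both signs, and none passed the test. The subunits of C1q, which opens the classical pathway, were positive, at 1.07 ± 0.28 (SE) for C1qa, 1.15 ± 0.24 for C1qb and 1.27 ± 0.30 for C1qc. The proteases that C1q activates and their inhibitor were negative, at -1.48 ± 0.29 for C1ra, -0.82 ± 0.20 for C1s1 and -1.90 ± 0.35 for Serping1, the C1 inhibitor gene (adjusted p = 0.273 for C1ra and 0.238 for Serping1). Serping1 read 7.57, 7.34 and 7.58 with rIFN-β and 7.69, 7.70 and 7.78 untreated in Ifnb-/-, against 8.36, 9.38 and 9.64 with rIFN-β and 7.32, 7.56 and 7.47 untreated in Ifnb+/+, so the Ifnb+/+ arrays with rIFN-β stood above all others, which lay between 7.32 and 7.78. It rose in Ifnb+/+ (log2 1.68, adjusted p = 0.00292), against -0.23 in Ifnb-/- (adjusted p = 0.685), and the interaction passed the test without Ifnb+/+ with rIFN-β replicate 1 (log2 -2.29, adjusted p = 0.000883, limma) and without untreated Ifnb+/+ replicate 2 (log2 -1.96, adjusted p = 0.0445). Of the 11 measured complement genes, 4 were positive and 4 negative at an unadjusted p under 0.05, against 10.1% and 5.21% of all genes. The remaining member of each sign was C5ar1, a receptor for a complement fragment, at 0.58 ± 0.26 and Cfp, the properdin gene, at -1.11 ± 0.44. Of 6 Fc receptor genes, 2 were positive at that p, the activating receptors Fcgr1 at 0.75 ± 0.22 (SE) and Fcgr3 at 0.76 ± 0.24, and 0 negative.

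The lysosomal list holds Ctsd and Cd68. Of its 45 measured genes, 15 were positive and 1, the receptor gene Scarb2, negative at an unadjusted p under 0.05, against 10.1% and 5.21% of all genes. Of the 45, 33 had a positive estimate and the median was 0.35. Cd68, the α-galactosidase gene Gla at 1.02 ± 0.22 (SE) and the sulfatase gene Galns at 1.16 ± 0.27 followed Ctsd by p (adjusted p = 0.323 for each). Gla read 5.61, 5.24 and 5.45 with rIFN-β and 5.69, 5.54 and 5.58 untreated in Ifnb-/-, against 5.26, 4.98 and 5.60 with rIFN-β and 6.57, 6.50 and 6.34 untreated in Ifnb+/+, with the untreated Ifnb+/+ arrays above the other 9. The list's median stood at 0.38, 0.19 and 0.31 on the untreated Ifnb+/+ arrays and between -0.17 and -0.03 on the other 9. Of 33 genes of the autophagy machinery, 3 were positive and 4 negative at that p, with a median of 0.01. With array medians subtracted 0 were positive and 4 negative, with a median of -0.06. The cargo receptor gene Sqstm1 had an interaction of 0.46 ± 0.17 (SE, adjusted p = 0.323, limma). Ulk2 was negative, from -0.70 to -0.38 with each array left out in turn. Without untreated Ifnb+/+ replicate 2, 9 autophagy genes were positive and 6 negative at that p. All 18193 genes then had 3632 positive and 2195 negative. Of 20 genes of cholesterol synthesis 0 were positive and 2 negative, Hmgcs1 and Idi1. Without Ifnb-/- with rIFN-β replicate 2, 9 of them were positive, as were 2680 of all 18193 genes.

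Integrated stress response genes, which Atf4 switches on when amino acids run short, had 10 positive and 0 negative of 20 at an unadjusted p under 0.05. Over all genes 10.1% were positive and 5.21% negative at that p. The list's median was 0.57 and 0 of its genes were called. The positive count ran from 7 to 12 with each array left out in turn, and from 943 to 3632 over all 18193 genes. Without untreated Ifnb+/+ replicate 2, 5 genes of the list were called positive, as were 803 of all genes. Slc7a5, which carries large neutral amino acids, had an interaction of 1.09 ± 0.30 (SE, adjusted p = 0.323) and read 8.26, 8.10 and 8.49 with rIFN-β and 7.57, 7.78 and 7.69 untreated in Ifnb-/-, against 8.16, 7.63 and 7.70 with rIFN-β and 8.75, 7.85 and 8.36 untreated in Ifnb+/+. Its partner Slc3a2 had 0.71 ± 0.21, the asparagine synthetase gene Asns 1.02 ± 0.31 and the transcription factor gene Atf5 0.85 ± 0.23, whereas Atf4 itself had 0.27 ± 0.24, Ddit3 0.09 ± 0.23 and the chaperone gene Hspa5 -0.02 ± 0.20. The spread within groups was of the same order as the list's shift, with list medians of 0.10, -0.05 and 0.15 on treated and -0.24, -0.23 and -0.22 on untreated Ifnb-/- arrays, against 0.07, -0.25 and 0.07 on treated and 0.45, -0.03 and 0.12 on untreated Ifnb+/+ arrays. Of 59 genes of the respiratory complexes, 23 were positive and 1 negative at that p, with a median of 0.38. Positive estimates included 0.78 ± 0.27 (SE) for Ndufs8 of complex I, 0.65 ± 0.23 for Cyc1 of complex III and 0.52 ± 0.23 for Cox4i1 of complex IV. The negative gene, Cox7c, moved 0.708-fold with rIFN-β in Ifnb-/- and 1.85-fold in Ifnb+/+. Its estimate ran from -1.78 to -0.97 with each array left out in turn. The list's count was among the least stable, at 7 positive and 2 negative with array medians subtracted. It was 6 positive without Ifnb-/- with rIFN-β replicate 3 and 36 without its replicate 2. Over all 18193 genes these 2 settings gave 943 and 2680 positive.

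**Figure D4:**
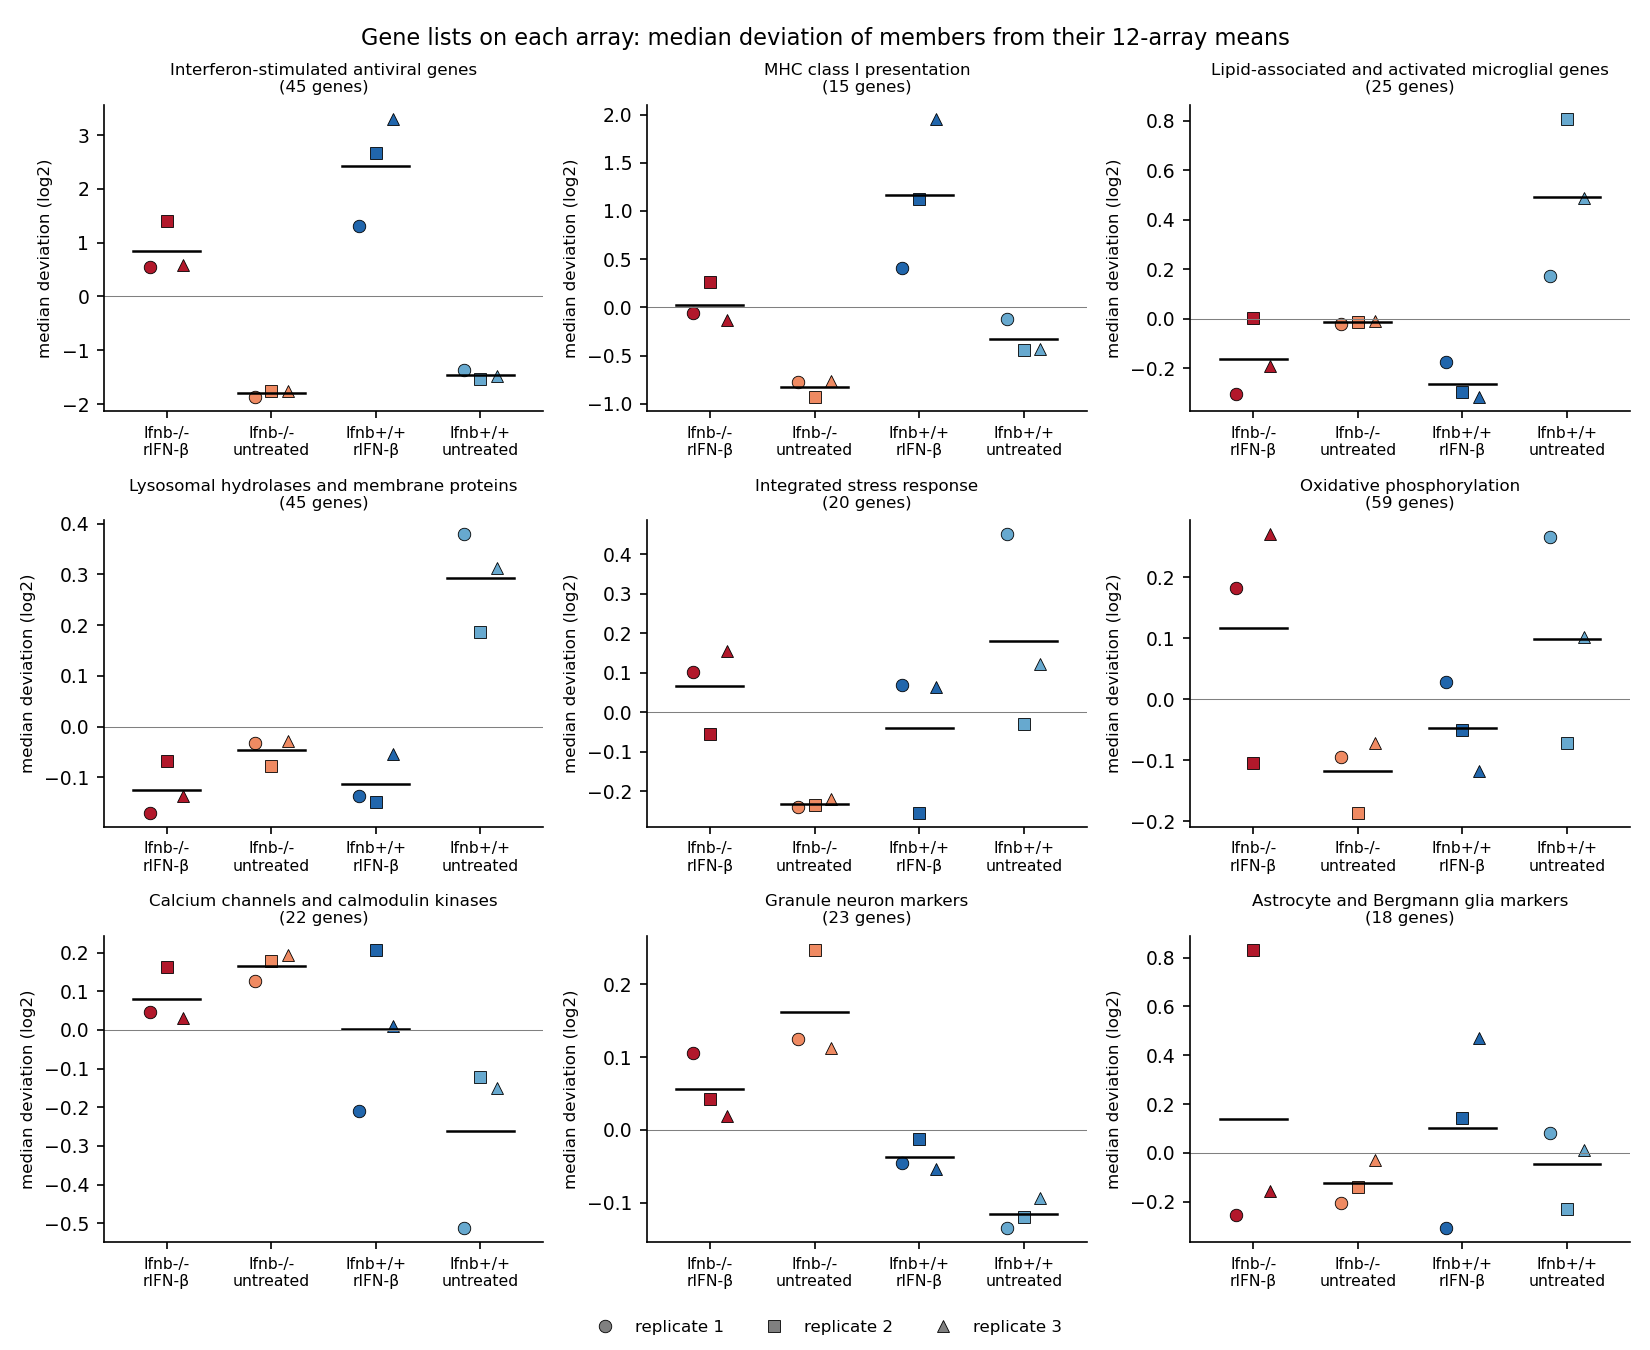
Median deviation of each list's genes from their 12-array means (y axis, log2) on each array, by group (x axis), with replicates 1, 2 and 3 as circles, squares and triangles and the group mean as a bar. The activated microglial and lysosomal lists are highest on all 3 untreated Ifnb+/+ arrays, and the antiviral list overlaps between the treated genotypes.

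Granule neuron markers and calcium channel genes had more negative than positive genes at an unadjusted p under 0.05, where all genes had 5.21% negative and 10.1% positive. Of 23 granule neuron markers, 8 were negative and 3 positive (median -0.22), and 0 were called. The transcription factor genes Neurod1 at -0.76 ± 0.27 (SE), Pax6 at -0.43 ± 0.14 and Nfia at -0.78 ± 0.27 were negative (adjusted p = 0.323 for each, limma). The defining granule neuron marker Rbfox3 was also negative, at -0.46 ± 0.18 (SE). Cbln3 at 0.83 ± 0.24 and Gabra6, the granule cell GABA-A receptor subunit, at 0.72 ± 0.26 were positive (adjusted p = 0.323 for both, limma). Gabra6 read 6.83, 6.29 and 6.75 with rIFN-β and 6.10, 6.11 and 6.34 untreated in Ifnb-/-, against 4.94, 5.61 and 5.01 with rIFN-β and 5.47, 5.44 and 5.48 untreated in Ifnb+/+, the Ifnb-/- arrays being above the Ifnb+/+ arrays with and without rIFN-β. Of 22 calcium channel and calmodulin kinase genes, 6 were negative and 0 positive, with a median of -0.30. Without untreated Ifnb+/+ replicate 2, 5 of them were called negative, as were 434 of all 18193 genes. Pcp4, a modulator of calmodulin, read 10.92, 10.78 and 10.84 with rIFN-β and 10.80, 10.75 and 10.84 untreated in Ifnb-/-, against 10.53, 10.81 and 10.59 with rIFN-β and 9.94, 10.04 and 9.89 untreated in Ifnb+/+, with the untreated Ifnb+/+ arrays below the other 9 and an interaction of -0.63 ± 0.15 (SE, adjusted p = 0.323). Cacna1c, an L-type calcium channel gene, had -0.85 ± 0.23, and Synpr, a synaptic vesicle protein gene, -0.73 ± 0.17 (adjusted p = 0.323 for both).

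The other lists are given by their counts at an unadjusted p under 0.05, which took in 15.3% of all genes: ribosomal proteins had 2 positive and 0 negative of 31, immediate early genes 4 and 0 of 28, genes of the NRF2-type antioxidant response 1 and 0 of 12, with Hmox1 at 0.85 ± 0.22 (SE), and cell cycle genes 2 and 0 of 33. Synaptic vesicle genes had 0 positive and 3 negative of 25. Without untreated Ifnb+/+ replicate 2 they had 9 and 5, and all 18193 genes had 3632 and 2195. Growth cone and guidance genes had 0 and 2 of 34 and GABA-A receptor subunits 1 and 1 of 10. Among other cell types, astrocyte markers had 0 and 0 of 18, oligodendrocyte markers 1 and 3 of 15, vascular and meningeal markers 5 and 1 of 19, Purkinje and GABAergic interneuron markers 0 and 0 of 10 and erythroid markers 1 and 0 of 6. No gene of these lists was called for the interaction.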

How the data were processed

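The authors extracted RNA from the cultures, measured each culture on 1 Affymetrix whole-genome mouse array, and deposited log2 intensities made by robust multi-array averaging with quantile normalization. Only relative levels are comparable, since this step acts against a shift common to most genes. It did not remove such a shift in full: array medians ran from 4.33 to 4.42 and the median interaction was 0.11. Of 45037 probe sets, 34945 named 1 gene, 932 several and 9160 none. The brightest probe set of each gene by its mean over the 12 arrays was used. Means of 4 groups were fitted in limma 3.58.1 (R 4.3.3) with moderated variances and Benjamini-Hochberg adjustment over 18193 genes, and a gene was called at an adjusted p under 0.05. The interaction was 1 contrast of this fit, and the other contrasts used the same fit. Of 677 genes in 27 lists, 605 were measured. The members and lists were chosen with earlier results of these data known. Genes named were every called gene, the 10 per direction with the smallest interaction p, the 5 per direction with the largest estimate, up to 3 per list, the 5 per direction with the largest effect shared by both genotypes, and Ifnb1, Ifnar1 and Ifnar2. Other genes named were chosen after their values were seen. Promoters were RefSeq windows in GRCm38.p6. Alternatives covered probe set choice, filters, scaling, variance models, thresholds, a replicate block and leaving out each array. Gene-by-gene array weights, and list counts under alternatives, were added after seeing the data.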

Additional observations from a re-analysis of the deposited data

Results flagged for a closer look

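The rIFN-β effects in the 2 genotypes differed by a test of the difference itself (limma, adjusted p under 0.05) for 4 genes, with interactions of 1.745 for Adam8, 1.731 for Trem2, 1.242 for Slc37a2 and 1.069 for Ctsd on the log2 scale. Their untreated Ifnb+/+ arrays were the highest of the 12 arrays in each case. The difference of the untreated genotypes is part of the interaction, so its values for these genes are no separate support. Each of the 4 was lower in untreated Ifnb-/- (adjusted p = 0.0137 for Adam8, 0.0164 for Trem2, 0.0115 for Slc37a2 and 0.0284 for Ctsd, limma). Without untreated Ifnb-/- replicate 2 that contrast called 0 genes. With ordinary least squares 0 of the 4 passed the test of the interaction.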

How the results depend on the processing

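The interactions of Adam8, Trem2, Ctsd and Slc37a2 kept their sign under all alternatives in which they were tested. The number of called genes did not hold: 4 were called, against 2 with every probe set tested on its own, 2 (both positive) where means under 5 were left out, 0 where means under 7 were left out, and 0 with ordinary least squares. Leaving out means under 5 kept 3 of the 4 genes in the test, and leaving out means under 7 kept 1, Ctsd. When a gene's probe sets were averaged 5 genes were called, Adam8, Ctsd, Slc37a2, Hk3 and 1 negative gene, Clec4n, and Trem2 at 0.866 was not. At an adjusted p under 0.10, 1 negative gene was called. Array weights called 6294 (3885 positive, 2409 negative), but that fit stopped before it converged with a weight of 5736 on untreated Ifnb+/+ replicate 3, and gene-by-gene array weights, added after seeing the data, called 4103 (2556 positive, 1547 negative). A rule of 1.5-fold with an unadjusted p under 0.05 took in 1733 (1036 positive, 697 negative). Leaving out 1 array gave 0 to 1237 called, with 0 to 803 positive and 0 to 434 negative, the highest counts being without untreated Ifnb+/+ replicate 2. The cause of these differences was not tested.

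The samples share only a replicate number: correlations of the deviations of same-numbered arrays ran from -0.501 to 0.432, 5 of 18 being over 0.1. With a replicate block 0 genes were called for the interaction, 0 of them positive and none of the 4 above, and 0 for the treated genotypes.

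Of the other contrasts, rIFN-β in Ifnb-/- called 304, against 77 without means under 7, 5117 with array weights, 3962 with gene-by-gene weights, 1397 with one weight per group, 132 with least squares, 583 at an adjusted p under 0.10, 798 by the fold rule and 83 to 705 with 1 array left out. rIFN-β in Ifnb+/+ called 571, against 170, 5611, 3295, 286, 307, 1059, 1363 and 241 to 2905 in the same order. The untreated genotypes called 21, against 32 with probe sets naming several genes admitted, 10877 with array weights, 7964 gene by gene, 43 with one weight per group, 13 with least squares, 80 at 0.10, 1088 by the fold rule and 0 to 3846 with 1 array left out. The treated genotypes called 11, against 0 without means under 7, 385 and 209 with the array weights, 0 with least squares, 23 at 0.10, 358 by the fold rule and 0 to 203 with 1 array left out.

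Among 108 genes checked, signs changed for 8. With probe sets averaged Slc4a1 was at 0.03, Rsad2 at -0.12 and Ifnar2 at 0.03. With array weights Gad1 was at 0.069, Usp18 at 0.178 and Rsad2 at -0.102, and gene by gene at 0.029, 0.135 and -0.061. With 1 array left out Ifit1 ran from -0.507 to 0.291, Usp18 from -0.366 to 0.418, Rsad2 from -0.25 to 0.518, H3c7 from -0.475 to 0.143, Fbxo32 from -0.36 to 0.16 and Gad1 from -0.648 to 0.004. The number of arrays, 3 per group, limits the precision.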
